A study of Mus musculus with 42 samples.

Results

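Retinoic acid pathway genes were followed in mouse lung mesenchyme, the connective tissue cells of the lung, through 9 named members: Stra6, Adh1, Adh7, Aldh1a1, Aldh1a2, Aldh1a3, Cyp26b1, Rarb and Rarres2. They were taken by symbol from both deposited RNA tables, and all 9 were found among the 26323 named genes of the CD1 table and the 35972 of the C57BL/6 table. The rule names symbols and uses no measured value, but the members were chosen with earlier results of these data known. All 9 passed the filter on low values (a mean of at least 1 normalised read over a table).

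The series held 42 libraries, 21 of RNA and 21 of accessible chromatin (ATAC-seq, which reads out DNA open to a transposase). From CD1 mice with a Col1a1-GFP reporter, GFP-positive cells negative for CD45, EpCAM and CD31 were lysed after sorting (sham, 3 libraries per assay) or grown for 5 days with serum on collagen-coated gels of 0.2 kPa, a soft surface, or 32 kPa, a stiff one (3 libraries each). From C57BL/6 mice, cells traced by a Col1a2 driver and negative for CD45 and EpCAM came from sham animals and from animals given bleomycin, which injures the lung, 14 or 56 days earlier (4 libraries each). Age is not given in the labels, and both markers are driven by collagen genes, so cells in which these genes were not active were not sampled by design. The labels number the replicates without saying whether they were separate animals. The p-values therefore reflect the spread among these libraries alone, and that spread could be technical. In bulk libraries, fewer cells of a type and less RNA per cell cannot be told apart.

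Retinoic acid is made from vitamin A (retinol) inside cells. Stra6 is the membrane receptor that takes up retinol from its carrier in blood, alcohol dehydrogenases such as Adh1 and Adh7 can oxidise retinol to retinal, and the retinaldehyde dehydrogenases Aldh1a1, Aldh1a2 and Aldh1a3 oxidise retinal to retinoic acid. Retinoic acid binds nuclear receptors, Rarb among them, that sit with a retinoid X receptor on repeated half-sites in DNA. Cyp26b1 breaks retinoic acid down, and Rarres2 encodes chemerin, a secreted attractant of immune cells named for its response to retinoids. In the lung the pathway is known for its part in alveolar development and in the vitamin A storing fibroblasts of the alveolar wall.

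A selection of DNA stretches at the members is shown first, each 5' to 3' on the strand of its gene (build mm10, GRCm38). Besides a promoter, the selection holds only regions picked as gains, so it does not stand for all listed regions. The Rarb promoter (RefSeq, chr14:16575477-16575726, minus strand, the 250 bases before a transcript start) is shown because it was the only member promoter with a DR5 word, the spacing for which retinoic acid receptor sites are best known. Of the listed regions, 6 at 5 members were more accessible both at day 14 and on a gel than in sham, and less accessible at day 56 than at day 14. For each of the 5 genes the one with the largest day 14 gain is shown, and the sixth, a Rarb intron region (chr14:16510683-16510898 over all lists), is not. Shown are an Aldh1a2 intron region (chr9:71288864-71289107, plus strand), the middle of a region downstream of Aldh1a3 (chr7:66375871-66376170, minus strand), a region upstream of Adh7 (chr3:138192407-138192570, plus strand), one downstream of Cyp26b1 (chr6:84561263-84561384, minus strand) and one at Rarb (chr14:16957906-16958143, minus strand), inside the gene as RefSeq draws it but upstream of its GENCODE starts. Capitals mark the DR5 word in the promoter and words of AP-1, the Fos and Jun factor family, in the other stretches.
Rarb promoter: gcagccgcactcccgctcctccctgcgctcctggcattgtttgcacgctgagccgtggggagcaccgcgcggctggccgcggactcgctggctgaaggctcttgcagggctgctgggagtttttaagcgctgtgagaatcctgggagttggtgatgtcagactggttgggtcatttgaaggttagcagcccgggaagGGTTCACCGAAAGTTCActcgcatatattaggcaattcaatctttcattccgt
Aldh1a2 region: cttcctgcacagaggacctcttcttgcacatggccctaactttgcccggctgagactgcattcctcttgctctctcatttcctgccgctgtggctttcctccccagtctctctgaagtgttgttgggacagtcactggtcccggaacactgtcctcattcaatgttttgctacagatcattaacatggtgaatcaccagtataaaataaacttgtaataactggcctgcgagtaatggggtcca
Aldh1a3 region: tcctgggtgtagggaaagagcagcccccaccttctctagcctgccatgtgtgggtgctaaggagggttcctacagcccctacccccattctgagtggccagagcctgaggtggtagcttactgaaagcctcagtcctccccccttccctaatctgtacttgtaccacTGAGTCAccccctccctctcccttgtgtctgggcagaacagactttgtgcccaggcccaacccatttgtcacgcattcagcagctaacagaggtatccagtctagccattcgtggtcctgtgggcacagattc
Adh7 region: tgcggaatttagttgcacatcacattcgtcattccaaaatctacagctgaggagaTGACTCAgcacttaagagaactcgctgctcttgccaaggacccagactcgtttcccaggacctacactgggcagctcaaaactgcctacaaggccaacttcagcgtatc
Cyp26b1 region: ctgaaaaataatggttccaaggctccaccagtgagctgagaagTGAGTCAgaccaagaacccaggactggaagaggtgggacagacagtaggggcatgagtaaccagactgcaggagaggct
Rarb region: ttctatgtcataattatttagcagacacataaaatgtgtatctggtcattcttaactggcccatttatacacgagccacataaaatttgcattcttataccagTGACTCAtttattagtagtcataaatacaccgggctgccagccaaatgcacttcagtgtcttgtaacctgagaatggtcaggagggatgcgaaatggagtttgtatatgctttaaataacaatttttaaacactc

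A DR5 word is a pair of half-sites in the same direction with 5 bases between them, on either strand. The half-site searched was AGGTCA or its variant AGTTCA, and likewise GGGTCA or its variant GGTTCA. Of the 32851 promoters in the RefSeq table, 0.0883% held the word in the 250 bases before the start. The table had 11 promoters for 7 of the 9 members, and that of Rarb alone held it, 53 to 37 bases before the start. Spacings of 1 and 2 bases occurred in 0.164% and 0.174% of all promoters and in none of the 11. Aldh1a3 and Rarres2 were not among the entries. The AP-1 words TGACTCA and TGAGTCA, which are each other's reverse complement, lay in 4.46% of all promoters, and among the members in those of Adh7 and Aldh1a1. A match is a description of letters, not of a bound site.

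Between 34313376 and 67721210 reads were recovered per CD1 RNA library, and between 14288605 and 51288435 per C57BL/6 library. Levels below are normalised reads, the reads of a library divided by its median-of-ratios factor, and are compared within a table only. Sums over marker lists (CPM, a gene's reads scaled to a common library total) moved with the groups. On 0.2 kPa all 14 epithelial markers, led in sham by Sftpc and Scgb1a1, were lower than in sham, and their sum was 139 to 375 CPM in CD1 sham and 1.19 to 2.58 on the gels, with Krt8, Scgb3a2 and Nkx2-1 at 0 on both gels. Of 12 mesothelial markers 9 were lower and Upk1b higher, with sums of 57.2 to 214 CPM in sham and 16.4 to 26.3 on the gels and Muc16 at 0 there. The highest sum of both lists was in CD1 sham replicate 2. Its sum of 8 smooth muscle markers was 708 CPM, against 3215 in sham replicate 1 and 3716 in replicate 3. By normalised reads it was the highest sham library for Aldh1a1, Adh1, Adh7, Rarb, Cyp26b1, Stra6 and Rarres2, but not for Aldh1a2 and Aldh1a3. The 11 adventitial fibroblast markers tested, led by Dcn, were all lower, with sums of 26952 to 31155 CPM in sham and 552 to 649 on the gels. Of 12 endothelial markers 11 were lower (325 to 343 CPM in sham, 15.2 to 18.3 on the gels), and of 12 alveolar fibroblast markers 9 (3762 to 4011 and 592 to 922). Of 9 general fibroblast markers 8 were lower and Vim higher, with sums of 58986 to 69981 CPM in sham and 14780 to 16462 on the gels. At day 14, 8 of 12 leukocyte markers, led by Lyz2 and Cd74, were higher than in sham, with sums of 241 to 368 CPM in sham, 574 to 2200 at day 14 and 191 to 670 at day 56. Of 12 alveolar fibroblast markers, led by Inmt and Npnt, 9 were lower at day 14, with sums of 7100 to 13548 CPM in sham, 2064 to 2574 at day 14 and 8236 to 10398 at day 56. Of 11 adventitial fibroblast markers tested 6 were lower and 1 higher at day 14, with sums of 16180 to 22631 CPM in sham and 10370.5 to 12627 at day 14. Of 12 endothelial markers 2 were lower and 1 higher, with sums of 225 to 328 CPM in sham and 110 to 176 at day 14. Of 9 general fibroblast markers, led by Col3a1, 4 were higher (Col1a1, Col1a2, Col3a1 and Fn1) and 2 lower (Dcn and Pdgfra) at day 14. Their sums were 31362 to 44652 CPM in sham, 92138 to 114200.0 at day 14 and 30836 to 47658 at day 56. Of 10 pericyte markers 2 were higher and 2 lower, with sums of 1395 to 1891 CPM in sham and 2560.5 to 2998 at day 14. Postn led the day 14 sum, with a mean of 420 CPM in sham and 1422 at day 14. The median log2 fold change of the pericyte list was -0.33. Of 14 epithelial markers 2 were lower, with sums of 136 to 343 CPM in sham and 31.2 to 86.5 at day 14. The part of these cell types in the members' changes was not tested.

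Levels per length were compared first, as RPKM (reads scaled for exon length and library total). In CD1 sham the order of the means ran from Rarres2 (223 ± 58.0, SD, n = 3) through Adh1 (116 ± 28.5), Aldh1a2 (53.6 ± 5.22), Aldh1a3 (25.7 ± 0.177), Aldh1a1 (18.3 ± 7.32), Adh7 (3.67 ± 0.688), Cyp26b1 (2.46 ± 0.793) and Rarb (2.03 ± 0.591) to Stra6 (0.381 ± 0.0407). Between single libraries, Aldh1a1 overlapped Aldh1a3, and Cyp26b1 overlapped both Adh7 and Rarb. In C57BL/6 sham the order was Adh1 (712 ± 129, SD, n = 4), Rarres2 (199 ± 50.6), Aldh1a1 (122 ± 22.8), Adh7 (92.6 ± 15.1), Aldh1a2 (23.0 ± 5.02), Aldh1a3 (12.6 ± 4.17), Rarb (2.06 ± 0.971), Stra6 (0.853 ± 0.533) and Cyp26b1 (0.537 ± 0.617). There Aldh1a1 overlapped Adh7, Aldh1a2 overlapped Aldh1a3, and the 3 lowest overlapped one another. Adh7 was thus the sixth in CD1 sham and the fourth in C57BL/6 sham. Strain, reporter and gate differ between the tables, and the levels were not tested across them. On both gels Aldh1a2 was the highest member (50.1 ± 4.597 RPKM on 0.2 kPa and 38.9 ± 3.71 on 32 kPa, SD, n = 3), with Aldh1a3 next at 11.04 ± 1.23 and 12.2 ± 1.81, overlapping Aldh1a1.

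**Figure D1:**
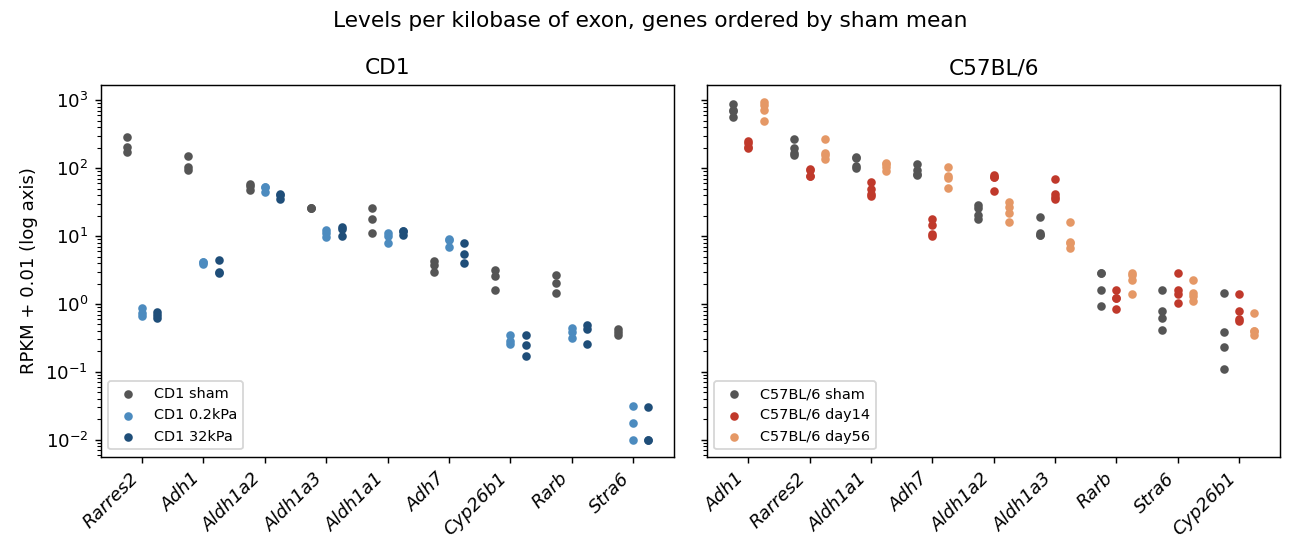
RPKM plus 0.01 (log axis) of the 9 genes in each RNA library, by strain, with genes ordered by their sham mean and 1 point per library. Aldh1a2 is the highest of the 9 genes on both gels, and Adh1 the highest in all 3 C57BL/6 groups.

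The first comparison asked what 5 days in culture did to the pathway. On 0.2 kPa, 8 of the 9 members were lower than in sham and Adh7 was higher (limma, Benjamini-Hochberg adjusted over the 18551 genes tested, threshold 0.05). Culture changed much of the transcriptome, since 39.0% of all genes tested were lower and 31.8% higher (70.8% in all), so a call alone says little about a member. The members' median log2 fold change was -2.60, against -0.22 over all genes tested. The groups did not overlap for any of the 9, as for 76.2% of all genes.

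RNA of the uptake receptor Stra6 and of the retinol oxidising enzyme Adh1 fell deeply, with Adh7 apart. Gene positions are those of RefSeq on GRCm38. Stra6, the retinol receptor (chr9:58063793-58154004, plus strand), had 113, 167 and 135 reads in the sham libraries, 2, 0 and 5 on 0.2 kPa and 4, 0 and 0 on 32 kPa. It was near the detection limit on both gels, and its log2 fold change (-5.45 ± 0.86, SE, adjusted p = 1.80e-04) depends on the pseudocount. Adh1 (chr3:138277585-138290698, plus strand) had 12637, 18271 and 11748 normalised reads in sham, 439, 403 and 451 on 0.2 kPa and 337, 497 and 309 on 32 kPa. Every gel library was far below every sham library (-5.01 ± 0.20, adjusted p = 4.42e-09, or 0.0309 of the sham level). Adh7 (chr3:138198064-138232042, plus strand), whose enzyme is known for high activity toward retinol, went the other way. It had 766, 899.5 and 615 normalised reads in sham and 1622, 1575 and 1273 on 0.2 kPa, all above sham (0.98 ± 0.22, adjusted p = 0.00225). On 32 kPa it had 1061, 764 and 1432, which overlapped sham, and the change missed the threshold (0.48 ± 0.22, 95% interval -0.01 to 0.98, adjusted p = 0.0697). That call was made with scaling by total reads, with DESeq2 (adjusted p = 0.0470) and without 32 kPa replicate 2 (0.74, adjusted p = 0.00762), whereas without other single libraries it was not.

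RNA of the 3 enzymes that make retinoic acid fell less than that of Adh1. Aldh1a3 (chr7:66390892-66427477, minus strand) had 6375, 6533 and 6577 normalised reads in sham, 2169, 2657 and 2452 on 0.2 kPa and 3069, 2360 and 3032 on 32 kPa. The groups were well apart (-1.43 ± 0.12 on 0.2 kPa, adjusted p = 1.42e-06, and -1.21 ± 0.12 on 32 kPa). Aldh1a1 (chr19:20492583-20643463, plus strand) had 4789, 7014 and 3047 in sham, where replicate 2 was the highest, 2636, 1827 and 2408 on 0.2 kPa and 2672, 2952 and 2838 on 32 kPa. The lowest sham library lay just above the highest gel library. Its change was -1.05 ± 0.25 on 0.2 kPa (adjusted p = 0.00314) and -0.73 ± 0.25 on 32 kPa (adjusted p = 0.0213), and without CD1 sham replicate 2 these were -0.76 (adjusted p = 0.00939) and -0.44 (adjusted p = 0.0803). The 32 kPa call was also lost without sham replicate 1 (-0.72, adjusted p = 0.0601) or 32 kPa replicate 1 (-0.67, adjusted p = 0.0663). Reads of Aldh1a1 and its near-identical neighbour Aldh1a7 could be shared by the counting. Aldh1a7 had 208 reads over the 3 CD1 sham libraries against 17043 for Aldh1a1.

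Aldh1a2 (chr9:71215789-71296243, plus strand), known as the main retinoic acid maker of the early embryo, moved least on 0.2 kPa. It had 5856, 6830 and 7229 normalised reads in sham and 5776, 4764 and 5674 on 0.2 kPa, with a narrow gap between the groups (-0.30 ± 0.12, adjusted p = 0.0466). This call did not hold with scaling by total reads (-0.10, adjusted p = 0.473), with only the 2 groups in the fit (-0.22, adjusted p = 0.112) or without CD1 sham replicate 3 (-0.24, adjusted p = 0.143) or replicate 2 (-0.28, adjusted p = 0.0908) or any one 0.2 kPa library (-0.34 to -0.20). On 32 kPa it had 4808, 3954 and 4492, below all sham libraries (-0.59 ± 0.12, adjusted p = 0.00113).

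RNA of the breakdown enzyme, the receptor and chemerin fell as well. Cyp26b1 (chr6:84571414-84593908, minus strand) had 749, 934 and 473 normalised reads in sham, 87.9, 68.2 and 63.3 on 0.2 kPa and 66.2, 43.7 and 88.4 on 32 kPa (-3.24 ± 0.32 and -3.42 ± 0.32). Rarb (chr14:16430839-17082331, minus strand) had 573, 759.9 and 418 in sham, 109, 94.3 and 78 on 0.2 kPa and 67.7, 126 and 108 on 32 kPa (-2.60 ± 0.30 and -2.53 ± 0.30). For both genes every gel library was several times lower than the lowest sham library. Rarres2 (chr6:48569696-48572845, minus strand) had 25166, 41977 and 30169 normalised reads in sham, 92.1, 81.2 and 109.6 on 0.2 kPa and 93.3, 81.1 and 96.3 on 32 kPa. It thus changed from the highest member in CD1 sham by RPKM to the sixth on both gels (-8.39 ± 0.19, adjusted p = 1.15e-10, and -8.44 ± 0.19, adjusted p = 1.02e-10).

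On 32 kPa 8 members were lower than in sham and none was higher (Adh7 being the ninth), in a comparison where 40.9% of all genes tested were lower and 32.2% higher (73.1% in all). The groups did not overlap for those 8, as for 72.9% of all genes. Both gel comparisons use the same sham libraries. Between the gels 0 of 9 members were called (background 0%). None of the 18551 genes tested passed the threshold by limma, 1014 had an unadjusted p under 0.05, and edgeR called 1 gene and DESeq2 46. The largest differences among members were for Stra6 (-0.54 ± 0.86), Adh7 (-0.50 ± 0.22, 95% interval -0.99 to -0.00) and Aldh1a1 (0.32 ± 0.25, interval -0.24 to 0.87). The Aldh1a1 libraries of the gels did not overlap, as for 9.21% of all genes. Without 32 kPa replicate 3, 827 genes were called between the gels, none of them a member.

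**Figure D2:**
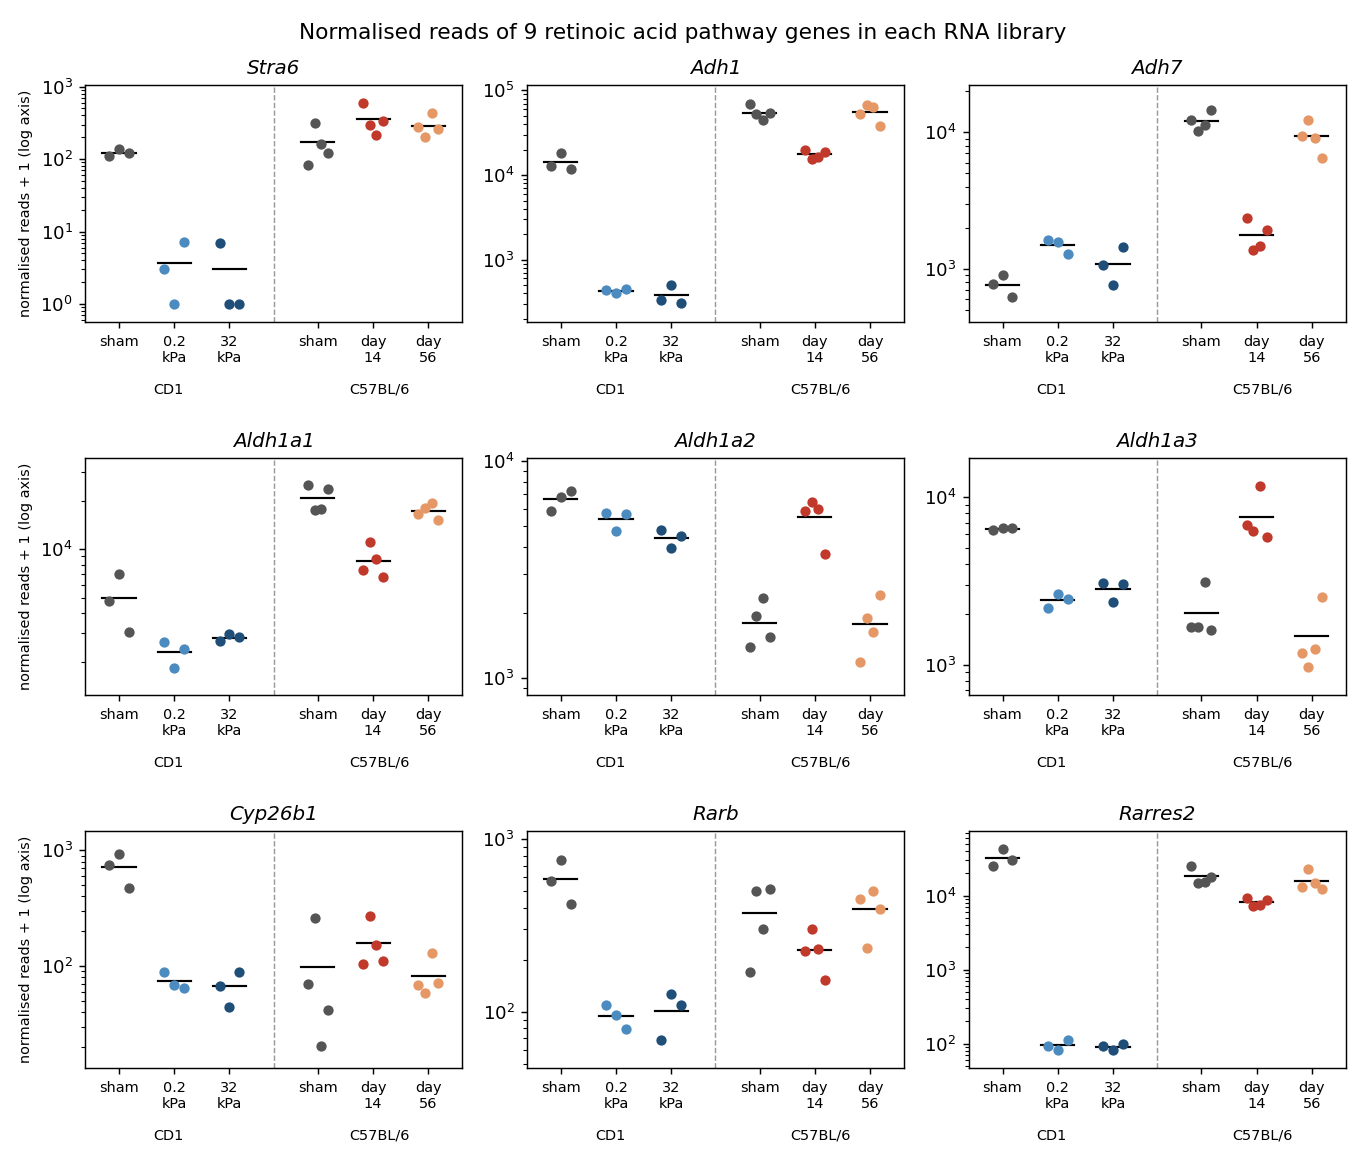
Normalised reads plus 1 (log axis) of the 9 genes in every RNA library, with 1 point per library and a bar at the group mean. The dashed line divides tables that were normalised separately. Rarres2, Adh1 and Stra6 show the widest gaps between CD1 sham and the gels, and Aldh1a2 and Aldh1a3 are high at day 14 only within C57BL/6.

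The next comparison asked what bleomycin injury did in the animal. At day 14, Aldh1a2 and Aldh1a3 were higher than in sham, and Adh7, Adh1, Aldh1a1 and Rarres2 were lower. Of the 20975 genes tested, 9.70% were higher and 6.43% lower (16.1% in all). Stra6, Rarb and Cyp26b1 did not pass the threshold. The groups did not overlap for the 6 called members, as for 26.3% of all genes.

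The retinaldehyde dehydrogenases divided. Aldh1a2 had 1391, 1930, 2327 and 1553 normalised reads in the sham libraries and 5860, 6427, 5986 and 3731 at day 14. The lowest day 14 library was above the highest sham library (1.61 ± 0.24, SE, adjusted p = 4.00e-04, a 3.05-fold rise). Aldh1a3 had 1681, 1681, 3124 and 1604 in sham and 6788, 6274, 11667 and 5808 at day 14, with replicate 3 the highest in each group (1.92 ± 0.31, adjusted p = 8.05e-04, or 3.78-fold). Day 14 replicate 3 had the lowest leukocyte marker sum of its group, 574 CPM. The sum of the 9 general fibroblast markers was the highest of its group both in sham replicate 3 (44652 CPM) and in day 14 replicate 3 (114200.0 CPM). Mesothelial marker sums overlapped, at 96.1 to 173 CPM in sham and 97.8 to 126 at day 14. Aldh1a1 went the other way, from 24814, 17427, 17672 and 23476 in sham to 7375, 11075, 8700 and 6741 (-1.31 ± 0.17, adjusted p = 1.76e-04). Aldh1a3 was thus at 46.4 ± 16.0 RPKM at day 14 (SD, n = 4) beside 48.2 ± 10.6 for Aldh1a1, from 12.6 and 122 in sham.

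Both alcohol dehydrogenases fell at day 14. Adh7 had 12299, 10150, 11295 and 14628 normalised reads in sham and 2351, 1373, 1469 and 1914 at day 14, the largest fall of the 9 (-2.79 ± 0.21, adjusted p = 2.56e-06). Adh1 had 68212, 52348, 44790 and 53869 in sham and 19926, 15673, 16504 and 18499 at day 14 (-1.62 ± 0.19, adjusted p = 5.98e-05). No library of one group reached the other for either gene. Adh7 therefore fell after injury in C57BL/6, whereas it rose on the soft gel in CD1. This difference lies across tables and was not tested.

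Rarres2 had 25119, 14935, 15150 and 17703 normalised reads in sham and 9266, 7149, 7444 and 8812 at day 14, without overlap (-1.13 ± 0.21, adjusted p = 0.00191). Rarb had 169.5, 502, 299.8 and 514 in sham and 225, 299, 231 and 152 at day 14, and the groups overlapped (-0.62 ± 0.37, 95% interval -1.41 to 0.18, adjusted p = 0.308). Stra6 had 81.7, 314, 163 and 122 in sham and 589.7, 294, 213 and 332 at day 14, where sham replicate 2 reached the day 14 range (1.14 ± 0.42, adjusted p = 0.0807). Cyp26b1 had 69.4, 258, 19.6 and 41.1 in sham, again with replicate 2 apart, and 103, 268, 150.1 and 109 at day 14 (1.22 ± 0.65, adjusted p = 0.238). Without sham replicate 2 both passed the threshold, Cyp26b1 at 1.90 (adjusted p = 0.0329) and Stra6 at 1.49 (adjusted p = 0.0243). They also passed it without the 4 libraries with under 18000 genes detected (C57BL/6 sham replicates 1 and 2, day 56 replicates 2 and 3), at 2.29 (adjusted p = 0.00383) and 1.21 (adjusted p = 0.0252), with 5571 genes called in place of 3384.

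At day 56 none of the 9 members was called against sham. Over all genes tested limma called 1 of 20975 (0.00477%), 1326 had an unadjusted p under 0.05, edgeR called 1 and DESeq2 82. Aldh1a2 had 1188, 1885, 1638 and 2411 normalised reads at day 56, within the sham range apart from the lowest and highest library (-0.03 ± 0.24, 95% interval -0.54 to 0.47). The interval for Adh1 was -0.41 to 0.39, and those for Adh7 (-0.84 to 0.05) and Aldh1a3 (-1.16 to 0.16) leave room for a remaining fall. Stra6 had the largest difference of the 9, with 275, 199, 429.8 and 256 normalised reads at day 56, which overlapped sham. Its interval (-0.01 to 1.78 around 0.89, adjusted p = 0.788) leaves room for a remaining rise, and it differed little in value from day 14 (-0.26 ± 0.42).

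Against day 14, Adh7 (2.39 ± 0.21, adjusted p = 1.28e-05), Adh1 (1.62 ± 0.19), Aldh1a1 (1.04 ± 0.17) and Rarres2 (0.91 ± 0.21, adjusted p = 0.00922) were higher at day 56, and Aldh1a3 (-2.42 ± 0.31, adjusted p = 1.95e-04) and Aldh1a2 (-1.64 ± 0.24) were lower. These 6 are the ones called at day 14, and both comparisons use the day 14 libraries. In all, 5.76% of genes tested were higher and 8.60% lower (14.4% together). The groups did not overlap for the 6, as for 20.4% of all genes. Aldh1a3 had 1170, 962, 1230 and 2543 normalised reads at day 56, and Adh7 had 9484, 12314, 9086 and 6511, none of which overlapped day 14. Per the sex-linked transcripts, 1 of 4 sham, 2 of 4 day 14 and 4 of 4 day 56 libraries came from females. Rarb passed the threshold against day 14 only without the 4 libraries named above (0.95, adjusted p = 0.0369), among the alternatives run. With sex as a covariate the same numbers of members were called, 2 higher and 4 lower at day 14, and 4 higher and 2 lower at day 56 against day 14.

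**Figure D3:**
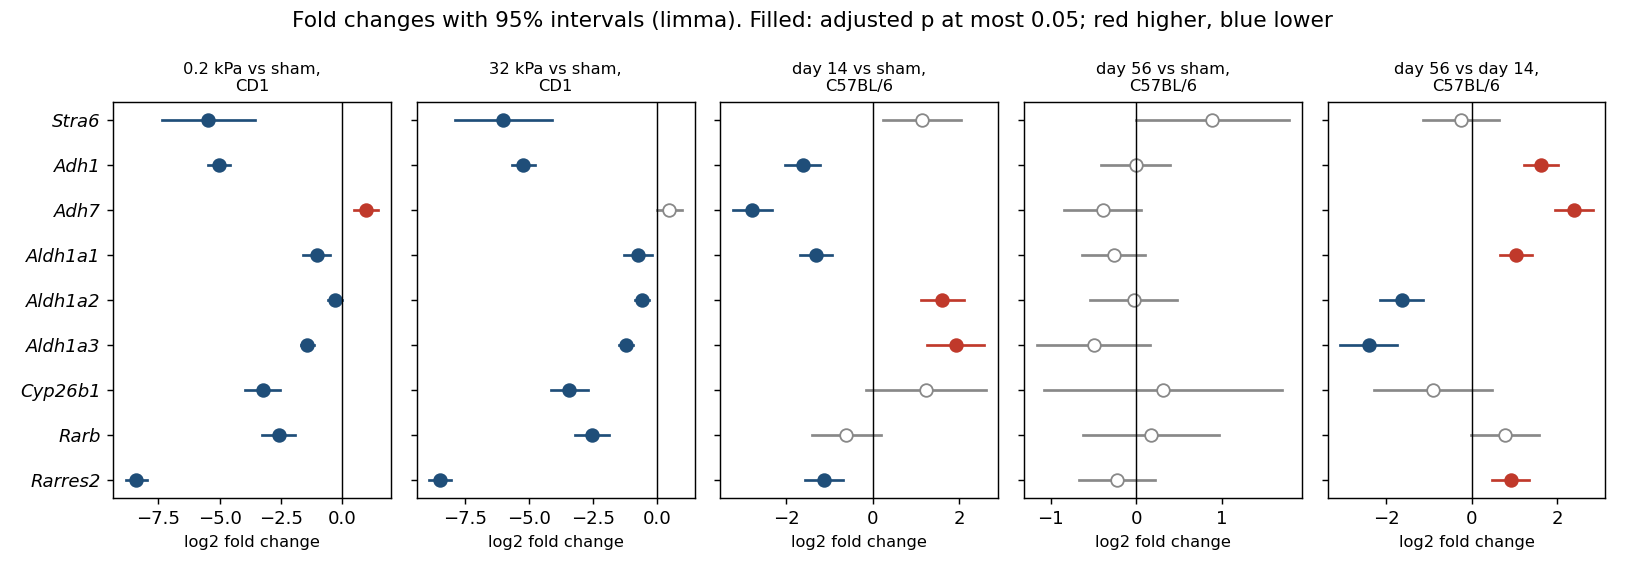
Log2 fold changes of the 9 genes with 95% intervals (limma) in 5 comparisons, whose horizontal scales differ. Filled points passed an adjusted p of 0.05, and open points did not. Aldh1a2 and Aldh1a3 are lower on 0.2 kPa (-0.30 and -1.43) and higher at day 14 (1.61 and 1.92).

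A list of 63 other genes of retinoid handling and response, of which 55 were tested in each table, gives the surroundings. On 0.2 kPa 12 were higher and 25 lower, where 31.8% and 39.0% of all genes tested were, and on 32 kPa 13 and 26, where 32.2% and 40.9% were. The list's median log2 fold changes were -0.56 and -0.80, against -0.22 and -0.26 over all genes. Lrat, which stores retinol as esters, had 4664 reads over the 3 CD1 sham libraries, 1 on 0.2 kPa and 0 on 32 kPa. Rbp4, the retinol carrier, fell on 0.2 kPa (-5.61 ± 0.36). Fabp5, a fatty acid binding protein that can also carry retinoic acid, rose (3.98 ± 0.18). All 3 chemerin receptors on the list were lower on 0.2 kPa, namely Cmklr1 (-3.66 ± 0.12), Gpr1 (-6.78 ± 0.63) and Ccrl2 (-6.03 ± 0.82). The receptor genes Rarg (-1.97 ± 0.16) and Rxra (-1.0015 ± 0.0967) were lower too.

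At day 14, 5 of these 55 were higher and 9 lower, where 9.70% and 6.43% of all genes were, with a median log2 fold change of -0.10 against 0.05 over all genes. Crabp2, which carries retinoic acid to its nuclear receptors, rose from 20 reads over the 4 sham libraries to 918 at day 14 and was at 5 at day 56 (5.83 ± 0.78, adjusted p = 1.99e-04). Cyp26a1, a retinoic acid hydroxylase, had 0 reads over the 4 sham libraries, 59 at day 14 and 32 at day 56, a low level throughout. Rai14 (1.53 ± 0.25), Fabp5 (1.59 ± 0.31) and Lpl (1.40 ± 0.22) were the others higher. Lrat (-2.90 ± 0.36), Rbp4 (-1.998 ± 0.25) and Aldh2, a mitochondrial aldehyde dehydrogenase (-1.63 ± 0.16), fell. The carotenoid oxygenase Bco2 (-2.96 ± 0.87), the chemerin receptor Ccrl2 (-1.38 ± 0.23), the homeobox gene Meis1 (-0.68 ± 0.15) and the coactivator Ncoa1 (-0.82 ± 0.22) were lower as well. Meis2 (-0.85 ± 0.16) and Hoxb5 (-0.81 ± 0.23), named after their values were seen, made up the 9. At day 56 none of the 55 was called against sham, where 0.00477% of all genes tested were, and DESeq2 called 1 of the list. With so few calls over all genes, this does not show that the list was back at sham levels. Against day 14, 10 were higher and 5 lower, where 5.76% and 8.60% of all genes were. Rdh10, the retinol dehydrogenase of embryonic retinoic acid synthesis, also named after its values were seen, was not called in any comparison (0.87 ± 0.36, adjusted p = 0.122, at day 14).

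Across the 21 RNA libraries, each centred on the sham mean of its table, Aldh1a2 and Aldh1a3 had a Pearson r of 0.92 and each had an r of -0.91 with Adh7. Adh1 and Rarres2 had an r of 0.98. The libraries fall into groups, so these values describe group patterns. Among 16411 genes tested in both tables, the patterns most like Aldh1a3 were those of Slc30a7 (0.97), Postn (0.96) and Kng2 (0.95), and for Aldh1a2 those of Ctsc (0.94), Fst (0.94) and Saa1 (0.93). For Adh7 they were Adcy8 (0.96), Nipsnap1 (0.96) and Aldh3a1 (0.94), for Adh1 Flt3l (0.996), Maob (0.995) and Bmp4 (0.995), and for Rarres2 Ctsf, Gpc3 and Apoe (all 0.998). Aldh1a1 was nearest to Aldh2 (0.88), Bambi (0.88) and Prokr1 (0.87), and Rarb to Ppara (0.97), Sik1 (0.96) and 2010315B03Rik (0.96). Cyp26b1 was nearest to H2-Q6, Tmem86a and Cxcl14 (all 0.95), and Stra6 to Casp4 (0.976), Sema6a (0.974) and Zmynd15 (0.973).

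Accessible chromatin near the members was read from the authors' 6 lists of regions that differed between groups, with positions in mm10. Each change below is the authors' own log2 difference between group concentrations and has no SD here. The depth of single ATAC libraries was not analysed. A region was counted for a member when it lay in the RefSeq gene or within 50 kb, or when the list assigned it to the gene, and its place was read from GENCODE M21. The 6 lists held 229 such entries, which overlapped into 113 separate stretches, and some lie between the neighbouring genes Adh7 and Adh1 on chromosome 3. Having a listed region was common, since 83.4% of protein-coding genes had one within 50 kb in the 0.2 kPa list, 85.3% in the 32 kPa list, 15.1% in the list between the gels, 61.2% in the day 14 list, 58.1% in that of day 56 against day 14 and 7.16% in that of day 56 against sham.

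In culture, promoters of most members were less accessible. The share of all promoters that were less accessible was not counted, and loss was the main direction of both gel lists. On 0.2 kPa 55 of 63 entries were less accessible than in sham, against 87.9% of the whole list, and 8 were more accessible, against 12.1%. On 32 kPa 53 of 78 were less accessible, against 70.4%, and 25 more accessible, against 29.6%. The Rarres2 promoter region (chr6:48572438-48573051 over all lists) changed by -4.31 on 0.2 kPa and -4.42 on 32 kPa. The Rarb promoter region that holds the DR5 word (chr14:16575215-16575759) changed by -3.01 and -2.25. Regions at starts of Aldh1a1 (-2.78 and -2.43), Aldh1a2 (-2.72 and -2.22), Aldh1a3 (-2.60 and -2.26) and Adh1 (-2.54 and -2.46) were less accessible too, and so was one within 1 kb of a Cyp26b1 start (-2.0 and -1.44). No region within 1 kb of a GENCODE start of Adh7 or Stra6 was in either list. A region just inside Adh7 as RefSeq draws it (chr3:138198245-138198440), upstream of its GENCODE starts, changed by -2 on 0.2 kPa and -1.6 on 32 kPa. A region between Adh7 and Adh1 (chr3:138248544-138249295) changed by -4.25 and -4.75, and at day 14 by -1.20. Aldh1a2, whose RNA moved least on 0.2 kPa, thus had a less accessible promoter on both gels.

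Gains in culture were fewer and lay away from promoters. The largest gain near a member was at Rarb (chr14:16874998-16875142), with 5.37 in the 32 kPa list. A Rarb intron region (chr14:16765927-16766206) gained 3.92 on 0.2 kPa and 4.29 on 32 kPa, and the Aldh1a2 intron stretch printed above gained 3.37 and 4.04. In the list of 32 kPa against 0.2 kPa, where 99.7% of 2558 regions were more accessible on the stiff gel and 0.274% less, 4 entries belonged to members. They were the printed Adh7 upstream (1.18) and Cyp26b1 downstream (1.15) stretches, an Aldh1a1 intron region (chr19:20558932-20559096, 1.10) and a region upstream of Aldh1a3 (chr7:66509959-66510155, 1.03). RNA of none of these 4 genes was called between the gels. The test called none of the 18551 genes there, so it cannot tell whether RNA and accessibility differed. The RNA log2 fold changes were -0.50 for Adh7, -0.19 for Cyp26b1, 0.32 for Aldh1a1 and 0.21 for Aldh1a3.

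After bleomycin, 25 entries were more accessible at day 14 and 24 less, against 67.9% and 32.1% of the whole list. Of the 25 stretches that gained, 22 were lower again in the list of day 56 against day 14. Of the 24 that lost, 9 were higher again. The shares of all regions that turned back in this way were not computed, so these counts have no background beside them. The list of day 56 against day 14 had 12 entries more accessible and 23 less, against 26.3% and 73.7% of the list. No entry near a member was in the list of day 56 against sham, of which 60.1% were more accessible and 39.9% less. The Aldh1a2 intron stretch gained 3.80 at day 14 and fell by 2.51 from day 14 to day 56, and the Aldh1a3 downstream stretch gained 2.96 and then fell by 3.26, beside the rise and fall of both transcripts. The Adh7 upstream stretch gained 1.78 and then fell by 2.30 while Adh7 RNA fell and rose. The region at the Adh7 start given by GENCODE changed by -1.03 at day 14. That at the Adh1 start changed by -1.06 and that at the Rarres2 start by -1.08. At a Stra6 start given by GENCODE (chr9:58131790-58132099) accessibility rose by 2.90 at day 14 and fell by 2.79 from day 14 to day 56. The Cyp26b1 downstream stretch gained 2.95 and fell by 2.77.

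**Figure D4:**
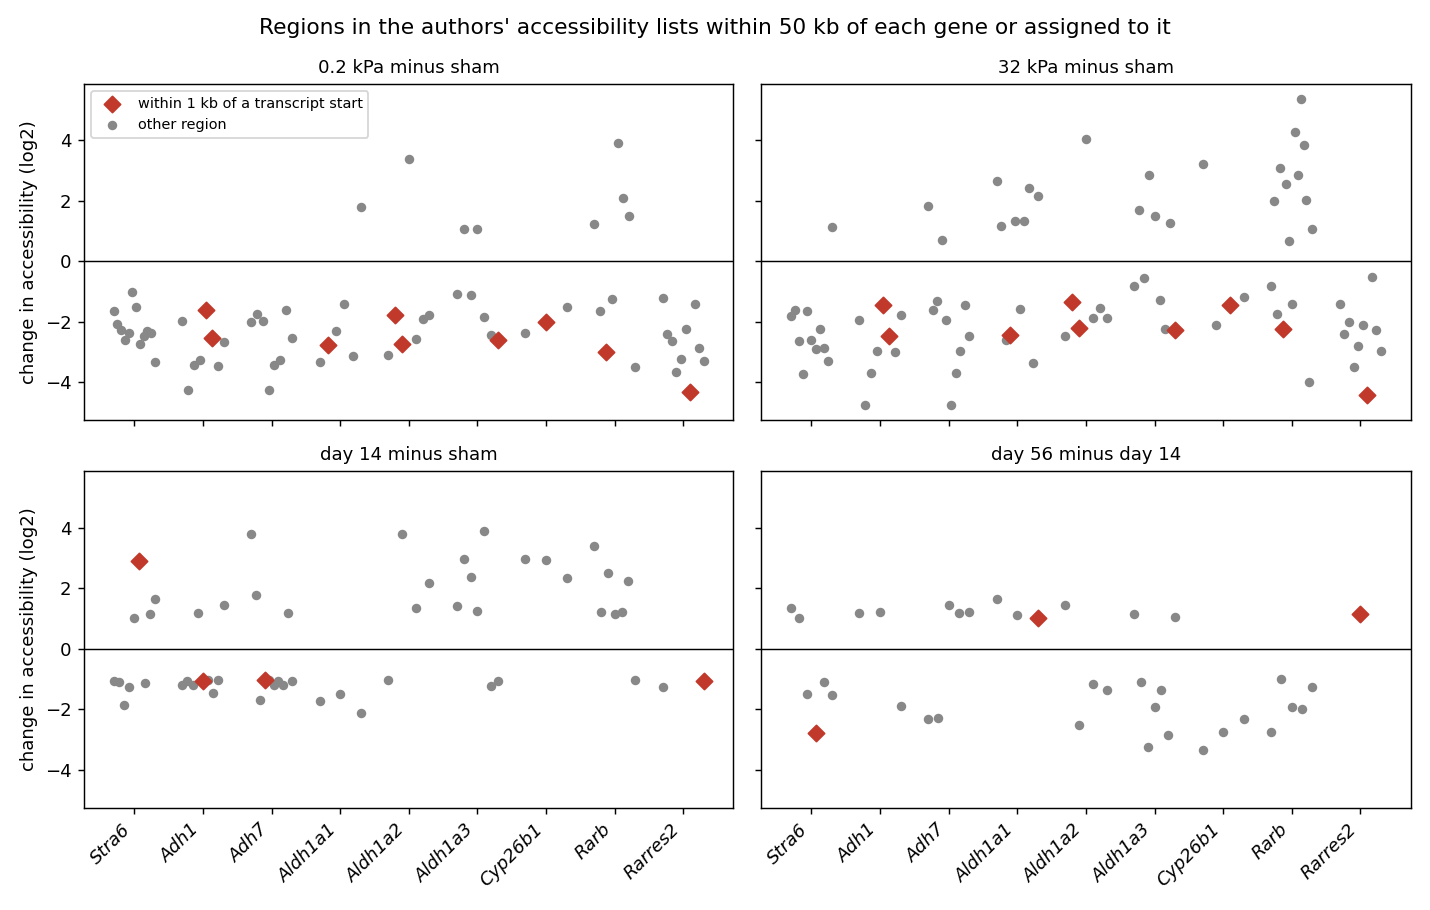
Change in accessibility (log2, the authors' values) of each listed region near the 9 genes, in 4 lists, ordered by position within a gene. Diamonds are regions within 1 kb of a GENCODE transcript start. The diamonds lie below 0 in both gel lists. Regions counted for both Adh1 and Adh7 are drawn under both genes. With each region counted once, 25 entries of the day 14 list lie above 0 and 24 below.

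The gels and day 14 had 19 stretches in common. Of these, 7 were more accessible than in sham in both settings, 10 less accessible in both and 2 differed in direction. How many of all listed regions were shared in these ways was not counted. The culture lists and the day 14 list come from different strains and sham samples. The 7 shared gains made up 28.0% of the stretches gained at day 14 and of the 25 gained in culture. AP-1 words were read in 200 bases around the middle of each region. They lay in 12 of the 25 member entries that gained at day 14 and in 2 of the 24 that lost, against 40.1% of all regions that gained and 4.86% of those that lost. On 32 kPa they lay in 13 of 25 gained and 4 of 53 lost member entries, against 49.7% and 9.15% in the list. The member shares were near those of the lists. Of the 6 regions that gained in both settings and were lower at day 56 than at day 14, 4 hold an AP-1 word, namely the printed ones of Aldh1a3, Adh7, Cyp26b1 and Rarb. The share with an AP-1 word among all listed regions meeting this rule was not counted, so the 4 have no background beside them. The printed Aldh1a2 region and the Rarb intron region that is not printed (1.24 on 0.2 kPa, 1.99 on 32 kPa, 1.2 at day 14 and -1.92 from day 14 to day 56) have none in these 200 bases.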

How the data were processed

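RNA was measured in 21 sorted or cultured mouse lung mesenchyme libraries and accessible chromatin in another 21. Per the submitters' processing notes the tools named include HISAT2, Bowtie2, Picard, SAMtools, bedtools, featureCounts, MACS2, HOMER, DiffBind and DESeq2, and the build was mm10. The labels name no versions, parameters or strand setting. The deposited RNA values are a signal, namely read counts divided by 1 factor per library. All values came out as whole reads within 0.05 reads, so reads were recovered. The CD1 table had 855 rows without a symbol, with 2.13% to 4.77% of reads, which were left out. The authors' deposited tables also gave log2 fold changes and p-values of comparisons, used for the ATAC regions only.

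Values were rescaled by median-of-ratios factors, and log2(value + 1) was fitted with limma 3.58.1 (R 4.3.3), 1 fit per table with group only. Genes with a mean of at least 1 were tested, and p-values were Benjamini-Hochberg adjusted over all of them. Depth per library is given in the text above, and CPM and RPKM were computed from recovered reads. ATAC changes and their FDR are the authors' deposited log2 values. In lists with no annotation, region starts were 1 base lower in 1684 of 1693 regions with shared ends, and 1 was added.

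Alternatives were other scalings, pseudocounts of 0.5 and 5, other filters, edgeR 4.0.16 and DESeq2 1.42.0 on recovered reads, 2 groups only, a replicate block, sex, and leaving out libraries. On simulated counts the limma step recovered 66.3% of genes changed by 1 on the log2 scale on 0.2 kPa against sham (18551 genes). It recovered 85.1% at day 14 against sham (20975 genes), and false calls made up 5.17% and 4.64% of the calls. The simulation changed few genes, all above a minimum level, and gave every gene the same spread setting. In the data 70.8% of genes tested were called on 0.2 kPa, so these rates describe the simulated setting alone. The members and lists were chosen with earlier results of these data known. Named genes are the 9 members, listed pathway genes called with a log2 change of at least 1 in some comparison, the 2 most abundant genes of a marker list and markers at 0, and the 3 genes most correlated with a member. Protein sequences were not used here.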

Additional observations from a re-analysis of the deposited data

Results flagged for a closer look

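Aldh1a3 had 1 library far from the others in each C57BL/6 group, in 3 of the 27 gene and group sets of 4 libraries examined, and chance gives such a library in about 1 set in 20. Sham replicate 3 had 3124 normalised reads, while the other sham libraries had 1604 to 1681. Day 14 replicate 3 had 11667, while the others had 5808 to 6788. Day 56 replicate 4 had 2543, while the others had 962 to 1230.2. In each group that library also had the highest sum of general fibroblast markers, at 44652, 114200.0 and 47658 CPM, and the part of this in the result was not tested. The collagen gene Col3a1 led that sum in each group, so a higher sum need not mean more fibroblasts.

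For 6 members the change from sham at day 14 differed from that at day 56, by the limma test of day 56 against day 14 with Benjamini-Hochberg adjustment. Both changes are taken from the same sham libraries, so the difference is that between the days. It was 1.04 for Aldh1a1 (adjusted p = 0.00123), -1.64 for Aldh1a2 (adjusted p = 4.25e-04) and -2.42 for Aldh1a3 (adjusted p = 1.95e-04) on the log2 scale. It was 1.62 for Adh1 (adjusted p = 9.60e-05), 2.39 for Adh7 (adjusted p = 1.28e-05) and 0.91 for Rarres2 (adjusted p = 0.00922).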

How the results depend on the processing

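Of the members' fold changes under the alternatives run, 979 kept their direction and their side of the threshold, 12 lost the call, 8 gained it and 27 turned direction. None of the 27 was called. Members higher on 32 kPa against sham numbered 1 with total reads and with DESeq2, and 0 to 1 without single libraries. Members higher at day 14 numbered 4 without the 4 libraries under 18000 genes, and 2 to 4 without single libraries. Genes called between the gels numbered 2 with values as deposited, 4 with total reads, 1 with a pseudocount of 5, 2 with a mean of at least 10, 1 with edgeR, 46 with DESeq2 and 0 to 827 without single libraries. Genes called at day 14 numbered 5571 without the 4 libraries and 2244 (without day 14 replicate 2) to 3331 without single ones. Genes called at day 56 against sham numbered 4 with values as deposited, 11 with total reads, 11 with a pseudocount of 5, 82 with DESeq2, 0 with 2 groups only, 0 with sex as covariate, 19 without the 4 libraries and 0 to 9 without single ones. Against day 14 they numbered 3013, then 1935 with sex, 5011 without the 4 libraries and 1868 (without day 14 replicate 2) to 3343 without single ones. Of the calls there, 40.1% were higher, against 20.4% with values as deposited and 52.7% with total reads. Scaling by total reads moved the median of all genes by 0.19 on 0.2 kPa, 0.12 on 32 kPa and 0.11 for day 56 against day 14. The causes were not tested.

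Between the gels, Rarb turned to -0.0055 with total reads, and without single libraries Rarb ranged from -0.11 to 0.33, Stra6 from -1.52 to 0.13, Rarres2 from -0.16 to 0.057 and Cyp26b1 from -0.42 to 0.080. At day 56 against sham, Rarb was -0.047 with values as deposited and -0.28 with sex, Aldh1a2 0.045 and Adh1 0.070 with total reads, and Adh1 0.0055 with edgeR, 0.0083 with DESeq2 and 0.0054 with sex. Cyp26b1 there was -0.24 with edgeR, -0.25 with DESeq2 and -0.72 with sex. Without single libraries, at day 56 against sham, Rarb ranged from -0.16 to 0.40, Aldh1a2 from -0.19 to 0.15, Adh1 from -0.11 to 0.17 and Cyp26b1 from -0.23 to 0.99, and Stra6 against day 14 from -0.47 to 0.018.

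Same-numbered libraries did not deviate together, so the numbers were not taken as pairs. With the replicate block 12825 genes were called on 0.2 kPa, 13289 on 32 kPa, 0 between the gels, 2830 at day 14, 0 at day 56 against sham and 2447 against day 14. Among members only the Aldh1a2 call on 0.2 kPa was lost (adjusted p = 0.0590 by limma). Depth limited Stra6 on the gels most, where it had 7 and 4 reads in all.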
